A study of Mus musculus with 42 samples.

Results

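The guanylate-binding proteins (Gbp) are a family of large GTPases, here followed as 10 genes of the mouse, Gbp2, Gbp2b, Gbp3, Gbp4, Gbp5, Gbp6, Gbp7, Gbp8, Gbp9 and Gbp10. The members were chosen by gene name from the 26811 genes of a bulk RNA-seq table, and all 10 were among the 16932 genes with enough reads to be tested. The family was taken up with earlier group comparisons of the same tumors known, and Gbp2b had already stood out in one of them (aPD1 against isotype control), so the p-values given here describe the fit and are not independent support for the choice of genes.

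The tumors were MC38, a mouse colon carcinoma cell line, grown from cells placed under the skin of female F1 mice from a cross of CC075/UncJ, a Collaborative Cross strain, with C57BL/6J, aged 8 to 12 weeks at the start. Antibodies against GM-CSF (aGMCSF, 100 µg) or against the IL-2 receptor β chain (aIL2RB, 200 µg), or their isotype controls, were injected every 3 days from engraftment on, and stopped once a tumor had reached 75 to 110 mm3. The mouse then received 1 injection of 200 µg of an antibody against PD-1 (aPD1) or of its isotype control, and its tumor was taken 48 h later. The 42 tumors, all of the same cell line and the same F1 cross, fell into 5 groups, isotype controls alone (n = 5), aPD1 with the isotypes of the blocking antibodies (n = 6), aPD1 + aGMCSF (n = 9), aPD1 + aIL2RB (n = 11) and aPD1 + aGMCSF + aIL2RB (n = 11, called double blockade below). No group received a blocking antibody without aPD1, so the comparisons show each blocker only on top of aPD1, and a whole tumor holds cancer cells, immune cells and stroma together, so fewer cells of a type and less RNA per cell cannot be told apart.

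Guanylate-binding proteins are induced by interferons, most strongly by interferon-γ, and belong to the dynamin superfamily. They assemble on the membranes of vacuoles that hold pathogens and on bacteria, and help release the ligands that switch on the caspase-11 and AIM2 inflammasomes. Gbp2 is best known for coating the vacuole of Toxoplasma, Gbp5 for promoting assembly of the NLRP3 inflammasome, and Gbp7 for a part in the delivery of the NADPH oxidase to such vacuoles. Gbp2, Gbp5 and Gbp2b, whose protein was long called Gbp1, end in a CaaX box, a signal for attachment of a lipid anchor. In tumors, interferon-γ comes mainly from T cells and NK cells, and macrophages, other leukocytes and many cancer cells can answer it with Gbp transcription.

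The members lie in 2 clusters (GRCm38). On the plus strand of chromosome 3, in this order, are Gbp5 (142493978 to 142522344), Gbp7 (142530342 to 142550149), Gbp3 (142560026 to 142573209), Gbp2b (142594847 to 142619179) and Gbp2 (142620602 to 142638008). On the minus strand of chromosome 5 are Gbp8 (105014150 to 105139540), Gbp9 (105077630 to 105139539) and Gbp4 (105115767 to 105139586), whose annotated spans overlap, followed by Gbp10 (105215699 to 105239533) and Gbp6 (105270702 to 105293698). The read-through gene model Gm43302 (105214907 to 105293695) spans Gbp10 and Gbp6.

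Promoters are shown for members of the chromosome 3 cluster because RefSeq windows were matched for its 5 members, and 4 are printed to show the contrast between carrying an interferon-stimulated response element alone (Gbp2, Gbp2b) and carrying it together with a γ-activated site (Gbp5, Gbp7). RefSeq windows (GRCm38.p6), each from 250 bases before to 50 bases after an annotated start, were those of Gbp2, Gbp2b, Gbp3 (with 2 windows), Gbp5 and Gbp7. Capitals mark matches on either strand to the γ-activated site, a motif of interferon-γ-induced promoters (TTC, any 3 bases and GAA), or to the interferon-stimulated response element, a motif of IRF proteins, searched as GAAA, any 2 bases and GAAA, or the same read on the other strand.
Gbp2, chr3:142620413-142620712, plus strand: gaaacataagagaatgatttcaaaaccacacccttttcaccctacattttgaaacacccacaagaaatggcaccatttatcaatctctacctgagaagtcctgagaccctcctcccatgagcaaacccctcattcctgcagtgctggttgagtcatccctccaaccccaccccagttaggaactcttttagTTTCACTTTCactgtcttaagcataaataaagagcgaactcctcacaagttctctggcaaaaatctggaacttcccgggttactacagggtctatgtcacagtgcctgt
Gbp2b, chr3:142594597-142594896, plus strand: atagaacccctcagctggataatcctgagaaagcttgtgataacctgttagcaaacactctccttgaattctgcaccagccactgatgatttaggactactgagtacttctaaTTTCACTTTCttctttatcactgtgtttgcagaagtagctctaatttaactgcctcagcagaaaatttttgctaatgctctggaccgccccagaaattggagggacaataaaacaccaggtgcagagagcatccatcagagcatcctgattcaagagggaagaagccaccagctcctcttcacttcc
Gbp5, chr3:142496684-142496983, plus strand: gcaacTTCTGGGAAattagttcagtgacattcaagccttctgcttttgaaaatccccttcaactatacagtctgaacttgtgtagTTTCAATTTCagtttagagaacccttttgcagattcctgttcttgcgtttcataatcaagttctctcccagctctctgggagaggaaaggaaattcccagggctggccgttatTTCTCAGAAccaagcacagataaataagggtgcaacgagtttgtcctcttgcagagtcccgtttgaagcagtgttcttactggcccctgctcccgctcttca
Gbp7, chr3:142530086-142530385, plus strand: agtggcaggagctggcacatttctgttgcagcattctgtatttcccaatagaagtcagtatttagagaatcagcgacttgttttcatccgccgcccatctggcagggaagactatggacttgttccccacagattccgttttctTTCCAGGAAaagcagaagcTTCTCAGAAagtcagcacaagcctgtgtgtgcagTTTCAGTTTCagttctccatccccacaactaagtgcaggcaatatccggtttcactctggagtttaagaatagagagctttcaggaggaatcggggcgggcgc

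The response element lay 59 bases before the start in Gbp2, 137 in Gbp2b, 165 in Gbp5 and 53 in Gbp7. The first window of Gbp3 (chr3:142559794-142560093) held 2 overlapping matches, 45 and 39 bases before the start, and its second window (chr3:142560106-142560405) held none. A γ-activated site was found 245 and 52 bases before the start of Gbp5, and 106 and 87 bases before that of Gbp7, and in no other window of a member. Of all 32851 RefSeq promoter windows of the same length, 3.44% held the response element, 8.3% the γ-activated site and 0.45% both. A match is a description of the letters only, and the window of a gene without a match says nothing about the factor.

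Library totals ran from 7155464 counts (double blockade replicate 4) to 24101643, and 5 ribosomal RNA genes took 1.72% to 17.9% of them. Earlier results of these data had shown a division along the replicate numbers, which was carried through here as a first set (isotype 1 and 2, aPD1 1 to 3, aPD1 + aGMCSF 1 to 5, the other groups 1 to 6) and a second set (the remaining tumors). The labels give no reason for it, and the comparisons are also given within the sets further on. Ptprc, the pan-leukocyte marker CD45, was present in every group. Of 6 epithelial markers (Epcam, Krt8, Krt18, Krt19, Cdh1 and Cldn7), 5 had enough reads to be tested. These summed to 6.85 to 20.7 CPM (counts scaled to a common library total) in isotype tumors and to 0.263 to 10.6 CPM under double blockade. Of the 5 of them tested, none was called with aPD1 (median log2 fold change -0.004), and 0, 1 and 2 were called lower with the blockades than with aPD1 (medians -1.08, -0.99 and -1.96), and their part in the Gbp values was not tested.

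Abundance differed widely between the members. Per kb of exon, Gbp2 was the highest in every group, with 187 ± 28.2 CPM per kb (SD, n = 5) in isotype tumors, 272 ± 58.6 (n = 6) with aPD1, 169 ± 29.7 (n = 9) with aPD1 + aGMCSF, 177 ± 86.8 (n = 11) with aPD1 + aIL2RB and 146 ± 73.8 (n = 11) under double blockade. Gbp3 (42.6 ± 6.94 CPM per kb in isotype tumors) and Gbp7 (37.3 ± 5.97) came next and exchanged places between groups, their means lying within each other's spread. Gbp9 (19.99 ± 5.94), Gbp4 (16.7 ± 3.52) and Gbp6 (14.2 ± 2.75) formed a middle tier whose neighbours also lay within their spread in isotype tumors. Gbp5 (7.47 ± 1.24) and Gbp8 (6.21 ± 2.28) were lower, and Gbp2b (2.11 ± 0.789) and Gbp10 (1.73 ± 0.478) were the lowest pair in every group. Gbp2b ranged most, from a mean of 1.04 ± 0.994 CPM per kb with aPD1 + aIL2RB, the lowest of all members, to 9.17 ± 3.44 with aPD1. The chromosome 3 cluster gave 69.5% to 72.1% of the summed Gbp CPM in the group means.

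**Figure D1:**
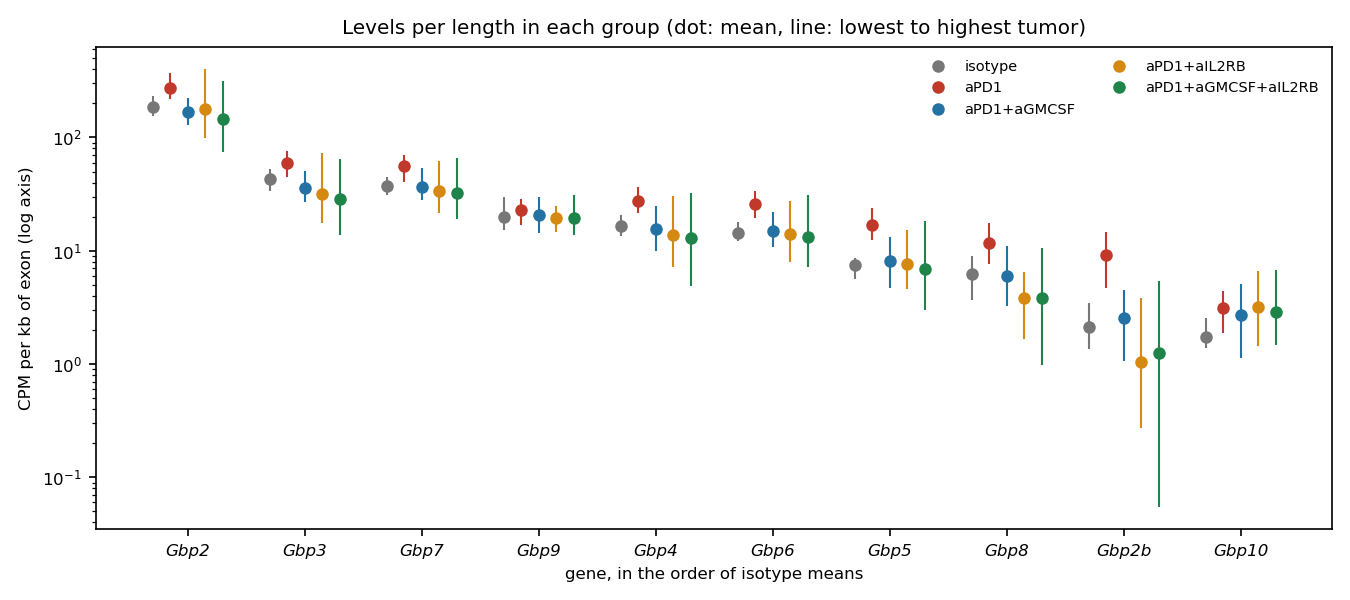
Level of each Gbp gene in CPM per kb of exon (log axis) by treatment group, with dots for group means and lines from the lowest to the highest tumor. Gbp2 was the highest in each of the 5 groups, at a mean of 272 CPM per kb with aPD1, and Gbp2b and Gbp10 were the lowest pair in every group.

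Some members share sequence with other genes. Of the 100-base words of the annotated transcripts, 73.5% of Gbp10 and 64.5% of Gbp6 also occurred in other genes, mostly in each other and in Gm43302, against 10.0% for Gbp7 (through the pseudogene Gm43802), 4.39% for Gbp8, 1.65% for Gbp9, 1.64% for Gbp4, 0.69% for Gbp3, 0.14% for Gbp5 and none for Gbp2 and Gbp2b. The deposited counts were whole, within 0.05, in all 42 tumors for Gbp2 and Gbp2b, but fractional in 38 of 42 for Gbp6, Gbp7 and Gbp10, 37 for Gbp9, 34 for Gbp4, 33 for Gbp8, 3 for Gbp3 and 1 for Gbp5. The division of reads between Gbp6 and Gbp10 is therefore uncertain. The sum of Gbp6, Gbp10 and Gm43302, which does not depend on that division, was 94.4 ± 19.7 CPM in isotype tumors (n = 5) and 169 ± 34.4 CPM with aPD1 (n = 6).

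The first comparison, aPD1 against isotype control, asks what one dose of the PD-1 antibody did within 48 h. Gbp2b and Gbp5 rose, and the other 8 members lay higher with aPD1 without passing the test. In isotype tumors Gbp2b stood at 5.67, 9.72, 5.19, 3.80 and 5.37 CPM, and in the aPD1 tumors it ran from 13.2 through a median of 25.7 to 41.5 CPM. Every aPD1 tumor was above every isotype tumor. Gbp5, the NLRP3-related member, stood at 56.5, 57.2, 45.1, 37.6 and 51.5 CPM in isotype tumors and at 82.0 to 157 CPM (median 106) with aPD1, again without overlap. The log2 fold change was 2.12 (SE 0.67, adjusted p = 0.0401) for Gbp2b and 1.18 (SE 0.36, adjusted p = 0.0367) for Gbp5, by the quasi-likelihood test of edgeR with Benjamini-Hochberg adjustment over all 16932 genes. Thus 2 of 10 members were called higher, where 5.99% of all tested genes were.

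The remaining members had smaller or more scattered differences with aPD1. Gbp2, the most abundant, stood at 459, 583, 391, 476 and 440 CPM in isotype tumors and at 552 to 930 CPM (median 643) with aPD1, and 4 of 6 aPD1 tumors were above the highest isotype tumor. Its log2 fold change was 0.54 (SE 0.31, adjusted p = 0.289). Gbp4 (101 to 154 CPM against 160 to 271 CPM) and Gbp6 (72.0 to 106 CPM against 117 to 200 CPM) did not overlap between the groups, but their log2 fold changes of 0.72 (SE 0.39, adjusted p = 0.26) and 0.86 (SE 0.33, adjusted p = 0.0923) did not pass in the shared fit. With Gbp2b and Gbp5 this made 4 members whose groups did not overlap, where 3.38% of all tested genes lay wholly above. Gbp8, Gbp10, Gbp7 and Gbp3 had log2 fold changes of 0.91, 0.87, 0.58 and 0.47, with 5 of 6 aPD1 tumors above the highest isotype tumor in each. Gbp9 alone had no aPD1 tumor above the highest isotype tumor. Its isotype tumors stood at 153, 114, 84.2, 78.5 and 87.8 CPM and aPD1 tumors at 88.0 to 147 CPM, and the log2 fold change was 0.21 (SE 0.21, adjusted p = 0.587). The median over the 10 members was 0.79, and over all tested genes it was -0.002.

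The calls with aPD1 rested on few tumors. Gbp2b was no longer called without any 1 of 7 of the 11 tumors, with the largest adjusted p at 0.11 (without isotype replicate 4), and Gbp5 without any 1 of 8, with the largest at 0.106. The count rose to 8 of 10 members when only the 2 groups compared were in the fit, where 1163 genes were called in all, against 1436 in the fit over all groups.

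**Figure D2:**
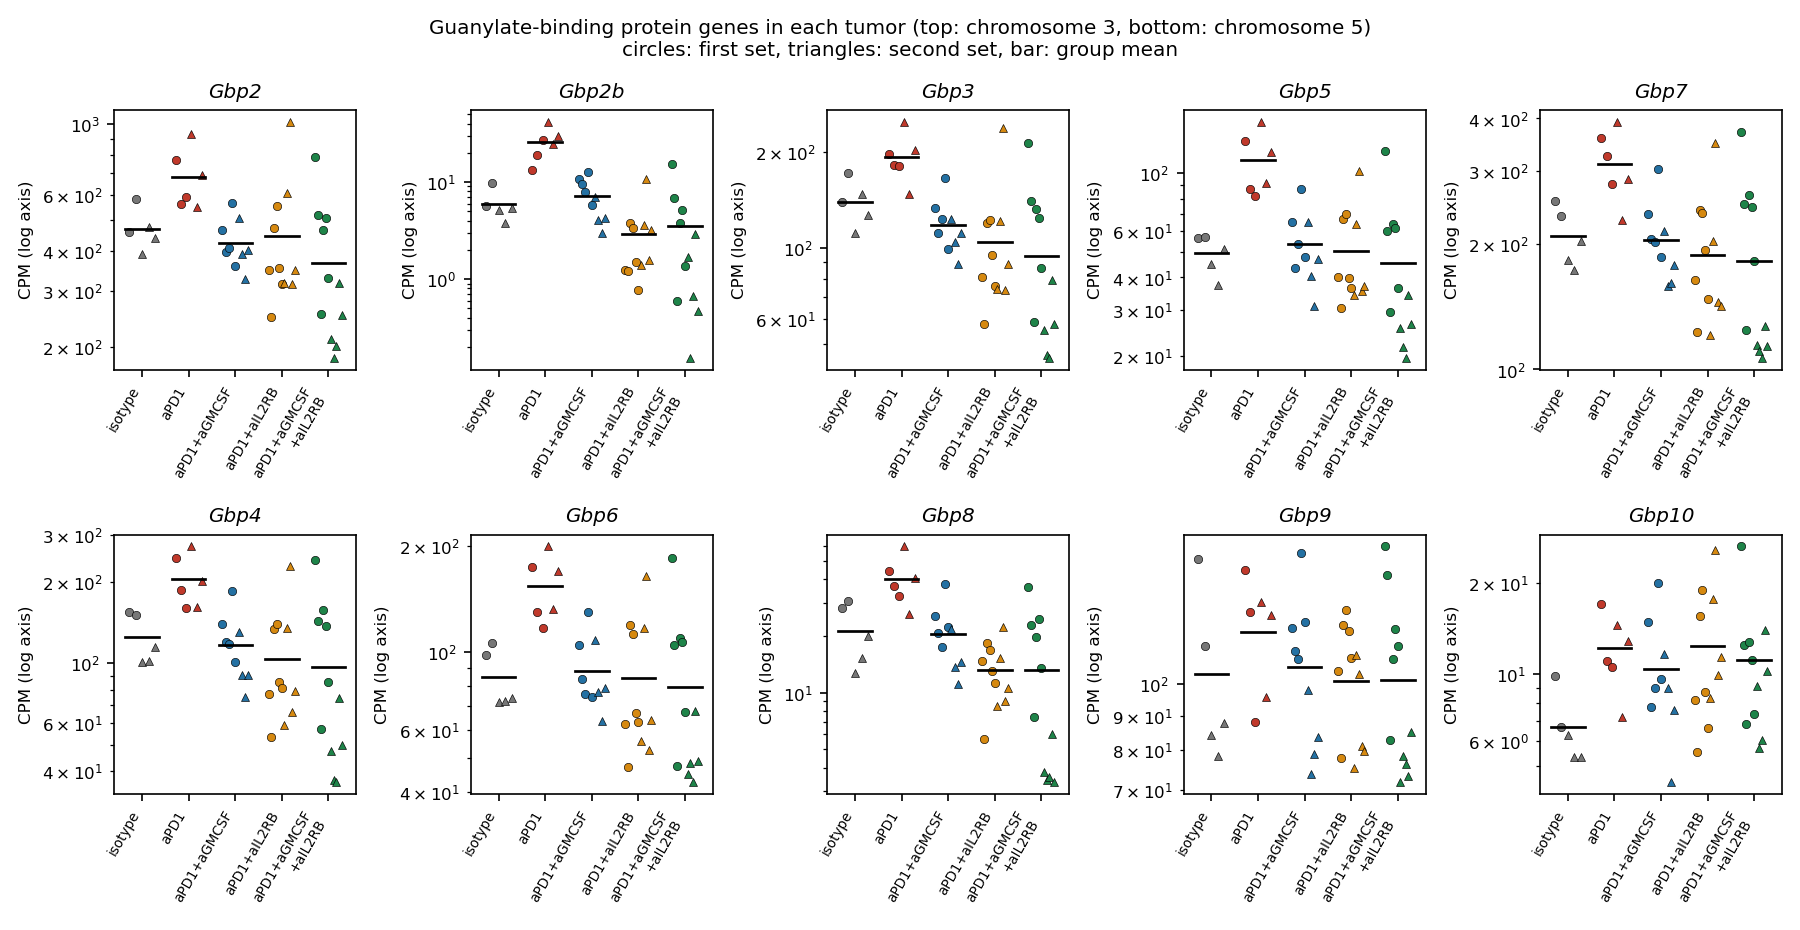
CPM of each of the 10 Gbp genes in each of the 42 tumors (log axis), by treatment group, with circles for the first set, triangles for the second set and bars for group means. The aPD1 tumors sit above all isotype tumors for Gbp2b, Gbp4, Gbp5 and Gbp6, and all 11 aPD1 + aIL2RB tumors sit below all aPD1 tumors for Gbp2b and Gbp8.

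With aGMCSF added to aPD1, Gbp2b, Gbp5 and Gbp6 fell, Gbp6 only just past the threshold. Gbp2b ran from 3.00 through a median of 6.99 to 12.7 CPM, and all 9 tumors lay below the lowest aPD1 tumor (13.2 CPM). Its log2 fold change against aPD1 was -1.85 (SE 0.54, adjusted p = 0.0194). Gbp5 ran from 31.2 through 48.0 to 87.0 CPM, and 8 of 9 tumors lay below the lowest aPD1 tumor, and its log2 fold change was -1.06 (SE 0.30, adjusted p = 0.0163). Gbp6 ran from 63.7 through 79.0 to 130 CPM and had -0.80 (SE 0.28, adjusted p = 0.049), with the uncertainty of its reads as above. That call was lost in 15 of 26 alternatives, against 2 of 25 for Gbp2b and 2 of 26 for Gbp5. So 3 of 10 members were called lower, where 8.54% of all tested genes were, and Gbp2b was the only member without overlap, where 2.2% of all tested genes lay wholly below.

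The other 7 members did not pass the test against aPD1. Gbp8, Gbp4, Gbp3, Gbp2 and Gbp7 had log2 fold changes between -0.96 and -0.60 with adjusted p between 0.0759 and 0.103, and at least 7 of 9 tumors lay below the lowest aPD1 tumor for each. Gbp10 (-0.23, adjusted p = 0.702) and Gbp9 (-0.17, adjusted p = 0.602) were closest to 0. The median over the members was -0.76. Leaving out aPD1 replicate 4, the aPD1 tumor with the highest value for 8 of 10 members, ended all 3 calls (adjusted p = 0.0715 for Gbp2b and 0.067 for Gbp5), whereas the fit on these 2 groups alone called 8 (2525 genes in all, against 2246 in the fit over all groups).

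Adding aIL2RB to aPD1 lowered 7 members, and Gbp2b and Gbp8 most. Gbp2b ran from 0.775 through a median of 1.59 to 10.7 CPM, with all 11 tumors below the lowest aPD1 tumor, and its log2 fold change was -3.14 (SE 0.53, adjusted p = 2.27e-05). Gbp8 ran from 5.70 through 13.1 to 22.4 CPM against 26.1 to 59.9 CPM (median 38.7) with aPD1, again with all 11 tumors below, and the log2 fold change was -1.60 (SE 0.38, adjusted p = 0.00139). These were the members without overlap, where 2.99% of all tested genes lay wholly below. Gbp5 fell by 1.15 on the log2 scale (adjusted p = 0.00255), Gbp4 by 0.99 (adjusted p = 0.0171), Gbp3 by 0.89 (adjusted p = 0.00857), Gbp6 by 0.87 (adjusted p = 0.0111) and Gbp7 by 0.73 (adjusted p = 0.0149). The background for these 7 of 10 members was 14.4% of all tested genes called lower. In the second set alone Gbp3, Gbp4, Gbp6 and Gbp7 were not called (adjusted p between 0.0518 and 0.109), and without aPD1 replicate 4 Gbp4 and Gbp7 were not (adjusted p of 0.0531 and 0.05).

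Gbp2, Gbp9 and Gbp10 did not pass with aIL2RB. Gbp2 ran from 249 through 348 to 1013 CPM, the log2 fold change was -0.62 (SE 0.25, adjusted p = 0.0653), and its highest tumor, replicate 9, lay above every aPD1 tumor. Without that tumor Gbp2 had -0.82 and was called (adjusted p = 0.00576). Gbp9 had -0.24 (adjusted p = 0.333). Gbp10 stood at 5.54 to 25.5 CPM against 7.22 to 17.01 CPM with aPD1, with 3 of 11 tumors above the highest aPD1 tumor, and its log2 fold change was 0.02 (SE 0.30, adjusted p = 0.976). Replicate 9 held the highest value of its group for 9 members and a summed Gbp level of 2256 CPM, beside Ifng at 3.65 CPM. Its summed T cell markers were 11.1 CPM (group median 9.39), where the aPD1 tumors had 65.3 to 130 CPM. Summed NK cell markers were 15.5 CPM in this tumor (group median 7.66), where the aPD1 tumors had 36.2 to 73.1 CPM. Ptprc was 166 CPM (group median 120), where the aPD1 tumors had 205 to 412 CPM.

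Double blockade lowered 8 members against aPD1. Gbp2b ran from 0.154 through a median of 1.68 to 15.3 CPM, and its log2 fold change was -2.87 (SE 0.53, adjusted p = 8.82e-05). Gbp8 ran from 3.34 through 7.40 to 36.5 CPM with -1.62 (SE 0.38, adjusted p = 0.00139), and Gbp5 from 19.7 through 34.2 to 121 CPM with -1.30 (SE 0.29, adjusted p = 0.00079). Gbp4 fell by 1.08 on the log2 scale (adjusted p = 0.00882), Gbp3 by 1.04 (adjusted p = 0.00247), Gbp6 by 0.96 (adjusted p = 0.00557), Gbp2 by 0.90 (adjusted p = 0.00655) and Gbp7 by 0.77 (adjusted p = 0.00992). The background for these 8 of 10 members was 14.2% of all tested genes called lower. No call was lost when any 1 tumor was left out. In the first set alone, however, 0 members were called (912 genes in all), and in the second set alone 9 were (4945 genes). The fit on only the groups compared called 6 members (3945 genes in all).

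No member separated fully under double blockade, where 0.827% of all tested genes lay wholly below aPD1. For Gbp2, Gbp2b, Gbp3, Gbp4, Gbp5, Gbp6 and Gbp8, 10 of 11 tumors lay below the lowest aPD1 tumor, and the remaining tumor was replicate 1. That tumor had the highest value of its group for all 10 members, with a summed Gbp level of 2160 CPM, and also 68.3 CPM of T cell markers, 368 CPM of Ptprc and 3.25 CPM of Ifng. Gbp9 had a log2 fold change of -0.24 (adjusted p = 0.341) and Gbp10 of -0.15 (adjusted p = 0.772).

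**Figure D3:**
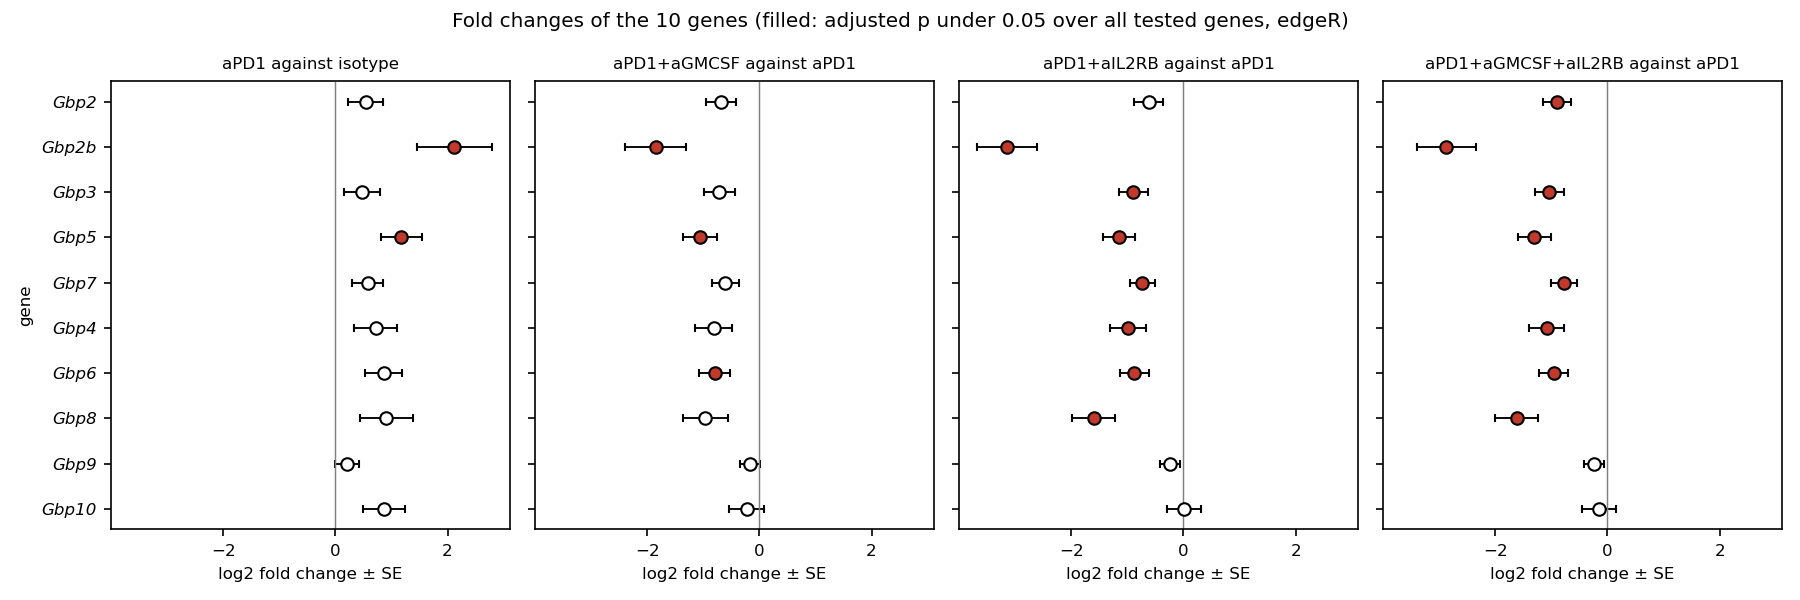
Log2 fold change of each Gbp gene in the 4 comparisons with aPD1 alone, with bars of 1 SE and filled symbols for an adjusted p under 0.05. Gbp2b and Gbp5 were called in all 4, while Gbp9 and Gbp10 were called in none.

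The 3 comparisons of blockade with aPD1 share the 6 aPD1 tumors, and so does the first one, so a high or low aPD1 tumor moves all of them. Side by side, Gbp2b and Gbp5 were called in each, and Gbp9 and Gbp10 in none. In the second set alone, however, Gbp9 was called in each of them (adjusted p between 0.000448 and 0.0194 by edgeR), and in the first set in none. The summed CPM of the 10 members was 1215 ± 188 (SD, n = 5) in isotype tumors, 1856 ± 368 (n = 6) with aPD1, 1151 ± 243 (n = 9) with aPD1 + aGMCSF, 1105 ± 464 (n = 11) with aPD1 + aIL2RB and 995 ± 512 (n = 11) under double blockade. In the order of the comparisons above, the log2 ratios of summed CPM were 0.60, -0.71, -0.75 and -0.94 for the chromosome 3 cluster, to which Gbp2 gave the most CPM, and 0.64, -0.63, -0.76 and -0.81 for chromosome 5. The median log2 fold changes of their members were 0.57, -0.71, -0.89 and -1.04 for chromosome 3 and 0.86, -0.80, -0.88 and -0.96 for chromosome 5, and the difference between the clusters was not tested. Within the family sum, Gbp2b took 1.41 ± 0.438% with aPD1 and 0.235 ± 0.111% with aPD1 + aIL2RB, whereas Gbp9 took 6.48 ± 0.85% and 9.93 ± 2.35%.

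Against isotype control, no member was called in any blockade group. With aPD1 + aGMCSF no gene at all passed by edgeR (924 had an unadjusted p under 0.05, none of them a member, and DESeq2 called 4 genes), and the members had a median log2 fold change of 0.00, with 5 above and 5 below 0. With aPD1 + aIL2RB, where 3.14% of tested genes were called in either direction, the median was -0.12, and with double blockade, where 10.1% were, it was -0.28. At an unadjusted p under 0.05 there were 0, 1 and 2 members in these comparisons, and 924, 3041 and 4485 of the 16932 tested genes. DESeq2 called no member. Gbp2b had log2 fold changes of 0.28 (adjusted p = 0.974), -1.02 (adjusted p = 0.355) and -0.75 (adjusted p = 0.429) in these comparisons, and Gbp10 had 0.64, 0.89 and 0.72 (adjusted p of 0.903, 0.148 and 0.164).

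Between the blockade groups, no member was called either. This held for aPD1 + aIL2RB against aPD1 + aGMCSF (1.49% of tested genes called), double blockade against aPD1 + aGMCSF (2.03%) and double blockade against aPD1 + aIL2RB (1 of 16932 genes). At an unadjusted p under 0.05 there were 1, 1 and 0 members, and 2250, 2897 and 1191 of the 16932 tested genes. DESeq2 called no member. Gbp2b had the widest differences, at -1.30 (adjusted p = 0.21), -1.03 (adjusted p = 0.276) and 0.27 (adjusted p = 0.937). In the first 2 of these, leaving out 1 tumor brought Gbp2b past the threshold, with -1.75 (adjusted p = 0.0425) without aPD1 + aIL2RB replicate 9 and -1.62 (adjusted p = 0.0377) without double blockade replicate 1.

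Values also differed between the sets of replicate numbers. With treatment in the model, all 10 members were lower in the second set, and Gbp8 (-0.77, adjusted p = 0.00979), Gbp9 (-0.45, adjusted p = 8.40e-05) and Gbp7 (-0.39, adjusted p = 0.0308) were called, where 11.4% of all tested genes were called lower. For aPD1 against isotype, 0 members were called in the first set (2 isotype and 3 aPD1 tumors, 11 genes called in all) and 5 in the second (3 and 3 tumors, 2102 genes), where Gbp2b had 2.76, Gbp5 1.47, Gbp8 1.41, Gbp6 1.21 and Gbp9 0.51. The median log2 fold change of the members was 0.39 in the first set and 1.03 in the second. For aPD1 + aGMCSF against aPD1, 0 members were called in the first set (median -0.57, 39 genes called in all) and 5 in the second (median -0.98, 2703 genes). For aPD1 + aIL2RB against aPD1, 6 members were called in the first set (median -0.93, 2681 genes) and 4 in the second (median -0.83, 3665 genes).

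Double blockade differed between the sets. Against aPD1, 0 members were called in the first set (median -0.49, 912 genes called in all) and 9 in the second (median -1.79, 4945 genes), all but Gbp10. The difference between the sets itself was called for Gbp8 (-2.53, SE 0.53, adjusted p = 0.00429), Gbp2b (-2.97, SE 0.95, adjusted p = 0.0442) and Gbp5 (-1.57, SE 0.51, adjusted p = 0.0498), where 6.38% of all tested genes were called lower in the second set. The difference of Gbp8 was called in 17 of 17 fits with 1 tumor left out, that of Gbp2b in 6 and that of Gbp5 in 5. Under double blockade Gbp8 stood at 7.40 to 36.5 CPM in the first set (n = 6) and at 3.34 to 6.02 CPM in the second (n = 5), without overlap.

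Set against aPD1 + aIL2RB, double blockade had all 10 members higher in the first set (median 0.40, 0 members and 0 genes called) and all 10 lower in the second (median -1.08, 320 genes called, Gbp8 among them at -1.70 with adjusted p = 0.0307). The difference between the sets was called for Gbp2b (-3.35, adjusted p = 0.0447), Gbp8 (-2.35, adjusted p = 0.015), Gbp4 (-1.75, adjusted p = 0.0437), Gbp3 (-1.52, adjusted p = 0.0405) and Gbp2 (-1.47, adjusted p = 0.0428), where 1.21% of all tested genes were called lower. With 1 tumor left out, the difference of Gbp8 was called in 21 of 22 fits, that of Gbp2, Gbp2b and Gbp3 in 8 each and that of Gbp4 in 7. None of the 5 was called without aPD1 + aIL2RB replicate 9, where Gbp8 had an adjusted p of 0.0597.

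The remaining comparisons had few or no calls of members within the sets. For aPD1 + aIL2RB against aPD1 + aGMCSF, all 10 members were negative in the first set (median -0.32, 269 genes called) and 8 of 10 positive in the second (median 0.15, 52 genes), with 0 members called in either. The median moved in the other direction for double blockade against aPD1 + aGMCSF, from 0.052 in the first set (0 members, 54 genes called) to -0.82 in the second (1 member, 1258 genes). Against isotype, aPD1 + aGMCSF had medians of -0.12 and -0.071 (0 members in either, 5 and 0 genes called) and aPD1 + aIL2RB of -0.43 and 0.10 (0 members in either, 388 and 264 genes). Double blockade against isotype had -0.13 (0 members, 390 genes) and -0.86 (2 members, 1881 genes). The difference between the sets was called by edgeR for no member in these 5 comparisons, nor with aPD1 against isotype or for either single blocker against aPD1, and was nearest to the threshold for Gbp8 with double blockade against aPD1 + aGMCSF (-1.67, adjusted p = 0.11). At an unadjusted p under 0.05 there were 5 members in that comparison (Gbp2, Gbp3, Gbp4, Gbp7 and Gbp8), 1 each with aPD1 against isotype (Gbp9), aPD1 + aGMCSF against aPD1 (Gbp9), double blockade against isotype (Gbp8) and aPD1 + aIL2RB against aPD1 + aGMCSF (Gbp2b), and 0 in the other 3. The share of all tested genes at this unadjusted threshold was not counted for the differences between sets, so these member counts have no background beside them.

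**Figure D4:**
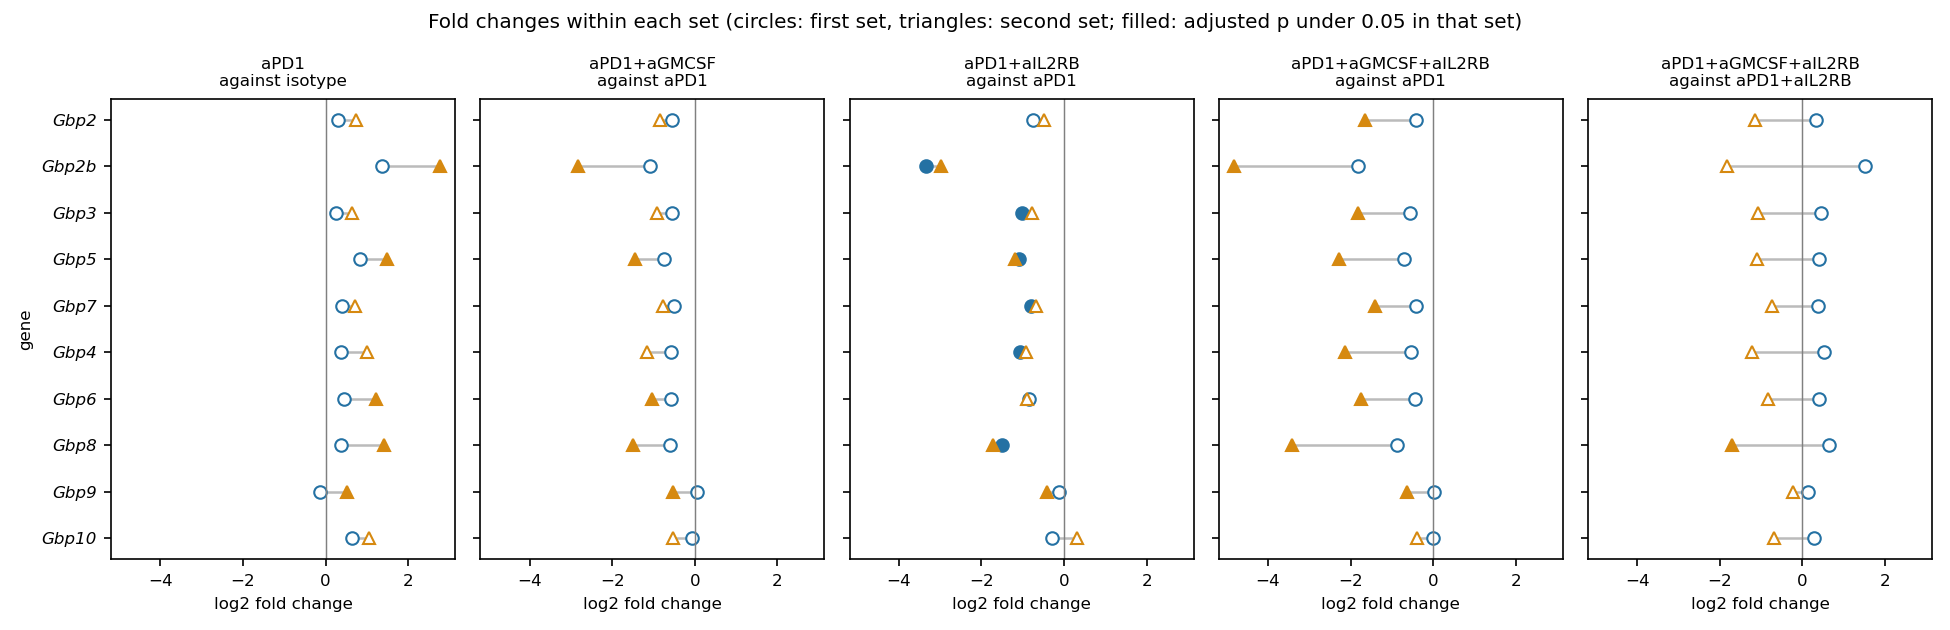
Log2 fold change of each Gbp gene within the first and the second set of replicate numbers, for 5 comparisons, with circles for the first set, triangles for the second and filled symbols for an adjusted p under 0.05 in that set. Under double blockade against aPD1 the median was -0.49 in the first set and -1.79 in the second.

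Markers of immune cells moved with the sets under double blockade. In its first set the summed T cell markers (Cd3d, Cd3e, Cd3g, Cd4, Cd8a, Cd8b1 and Trac) were 11.5 to 68.3 CPM, Ptprc 125 to 368 CPM and the summed Gbp level 668 to 2160 CPM. In its second set these were 0.975 to 5.66 CPM, 86.8 to 130 CPM and 537 to 798 CPM. The summed NK cell markers were 7.74 to 38.8 CPM in the first set and 2.00 to 7.58 CPM in the second, and the summed macrophage and monocyte markers 1906 to 2972 CPM and 1377 to 1711 CPM, both without overlap. Ifng was 0.294 to 3.25 CPM and 0 to 0.364 CPM, and overlapped. The part of these cells in the Gbp values was not tested.

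T cell and NK cell markers differed between the treatment groups as well, and not always with the members. The summed T cell markers were 30.6 to 55.4 CPM in isotype tumors, 65.3 to 130 with aPD1, 25.8 to 72.2 with aPD1 + aGMCSF, 3.23 to 29.3 with aPD1 + aIL2RB and 0.975 to 68.3 under double blockade. None of the 7 was called with aPD1 (all 7 positive, median log2 fold change 0.97) or with added aGMCSF (all 7 negative, median -1.25), 6 were called lower with added aIL2RB and 7 under double blockade. None of the 5 NK cell markers was called with aPD1 or with added aGMCSF, and all 5 were lower in both groups with aIL2RB, led by Ncr1, an activating NK receptor (-8.05, adjusted p = 3.63e-11, with aIL2RB). Against isotype, aPD1 + aIL2RB had 5 of 7 T cell markers (median -1.99) and 3 of 5 NK cell markers (median -2.19) called lower, where 0 members were called and their median was -0.12. Double blockade against isotype had 4 of 7 (median -1.58) and 2 of 5 (median -1.75) called lower, where 0 members were called and their median was -0.28. Ptprc rose with aPD1 (0.97, adjusted p = 0.0189) and fell by 0.81, 1.29 and 0.98 on the log2 scale with the 3 blockades (adjusted p of 0.0126, 1.70e-05 and 0.000628). Of 9 macrophage and monocyte markers, 6 rose with aPD1, led by Adgre1 (0.73, adjusted p = 0.00722), and 7, 8 and 9 fell with the blockades. The part of these cells in the Gbp values was not tested.

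Markers of other cells and tissues differed between the groups too. Of 5 skeletal muscle markers, 4 were higher with aPD1 (median log2 fold change 4.37), and their summed level ran from 0.140 to 22.3 CPM in isotype tumors and from 0.344 to 619 CPM in aPD1 tumors. With the blockades 0, 4 and 0 of the 5 were called lower than with aPD1 (medians -1.66, -2.68 and -1.72). Of 4 skin keratinocyte markers, 1 was called higher with aPD1 (median 2.24) and 1, 1 and 3 lower with the blockades (medians -2.25, -0.91 and -3.29). Of 4 granulocyte markers, 1 was called higher with aPD1 (median 1.10) and 3, 1 and 2 lower with the blockades (medians -1.64, -0.79 and -1.18). Of 5 endothelial markers, 2 were called higher with aPD1 (median 0.31), and 0, 1 and 3 higher with the blockades than with aPD1 (medians -0.02, 0.15 and 0.32). Of 6 fibroblast markers, 1 was called lower with aPD1 (median 0.13), and with the blockades 2, 3 and 3 were called higher and 0, 2 and 0 lower (medians 0.09, 0.51 and 0.67). Of 4 B cell markers, 1 was called higher with aPD1 (median 0.84) and 0, 2 and 1 lower with the blockades (medians -0.67, -1.41 and -1.39). Of 6 dendritic cell markers none was called with aPD1 (median 0.41), and with the blockades 1, 1 and 1 were called higher and 1, 2 and 1 lower. None of 4 adipocyte markers was called in these 4 comparisons. Their part in the Gbp values was not tested.

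The Gbp family level (the mean of the standardized log2 CPM of the 10 members) had a Spearman correlation of 0.135 with the summed skeletal muscle markers over the 42 tumors, but of -0.6 within the aPD1 group (n = 6) and 0.364 within double blockade (n = 11), and aPD1 replicate 4, with the highest family level of its group, held 0.344 CPM of the muscle markers. With Ptprc the correlation over all tumors was 0.868 (0.771 to 0.933 within the 4 groups of 6 or more tumors), with the summed T cell markers 0.783 (0.6 to 0.927), with the summed NK cell markers 0.813 (0.829 to 0.945), with the macrophage and monocyte markers 0.775 (0.483 to 0.9) and with Ifng 0.826 (0.45 to 0.925), where the lowest values of the last pair were within aPD1 + aGMCSF. With the total counts it was -0.106, but 0.714 within the aPD1 group and -0.473 within aPD1 + aIL2RB (n = 11). The values over all tumors span groups with different means, and all of them are descriptions over tumors that share treatments and sets.

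The transcripts of the interferon-γ pathway were examined from a list of 12 genes. Ifng, the ligand, had log2 fold changes of 1.53 with aPD1 (adjusted p = 0.139) and -1.51 with added aGMCSF (adjusted p = 0.0571), and fell by 2.28 with added aIL2RB (adjusted p = 0.000878) and fell by 2.65 under double blockade (adjusted p = 0.000237). Irf1, an interferon-induced transcription factor that binds Gbp promoters, had 0.23 with aPD1 (adjusted p = 0.252) and fell by 0.31, 0.31 and 0.52 (adjusted p of 0.047, 0.0231 and 0.000185). In all, Irf8 (0.84) and Jak1 (0.19) were called higher with aPD1, and 6, 7 and 8 of 12 were called lower with the blockades, with medians of -0.24, -0.24 and -0.34. The receptor genes Ifngr1 and Ifngr2 were called in none of these comparisons.

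Type I interferons also induce Gbp genes. Of 7 genes of their signalling tested, 6 rose with aPD1, led by Irf7 (1.94, adjusted p = 0.000491), Usp18 (1.27, adjusted p = 0.00188) and Stat2 (0.79, adjusted p = 0.018), and 6 fell with each blockade. The immunity-related GTPases, another interferon-γ-induced family that guards vacuoles, had a median log2 fold change of 0.86 with aPD1. Of 9 tested, Ifi47 alone was called higher with aPD1 (0.76, adjusted p = 0.0383), and 6, 9 and 9 were called lower with the blockades, with medians of -0.96, -1.13 and -1.28. Gm4951 (-1.43, adjusted p = 0.000755) and Gm12250 (-1.35, adjusted p = 0.00159) fell most with added aIL2RB.

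Among other members of the dynamin superfamily, the interferon-induced Mx1 (1.79, adjusted p = 0.000594), Gvin1 (1.28, adjusted p = 0.0274) and Mx2 (1.16, adjusted p = 0.00567) rose with aPD1, and none of the mitochondrial and endocytic members (Dnm1, Dnm1l, Dnm2, Dnm3, Mfn1, Mfn2 and Opa1) or the atlastins (Atl1, Atl2 and Atl3) was called. Over the 14 tested the median was 0.04 with aPD1. With added aIL2RB, 5 were lower, led by Gvin1 (-1.53, adjusted p = 0.000144), and 4 were higher, led by Atl1 (0.61, adjusted p = 0.0472) and Dnm1 (0.56, adjusted p = 2.07e-05).

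Of 10 genes of the inflammasomes that Gbp proteins help to switch on, 4 rose with aPD1, Nlrc4 (0.89, adjusted p = 0.00586), the adaptor Pycard (0.72, adjusted p = 0.0139), Ninj1 (0.64, adjusted p = 0.0254) and the pore protein Gsdmd (0.33, adjusted p = 0.0133), and 7, 7 and 9 fell with the blockades. Nlrp3 had 0.69 with aPD1 (adjusted p = 0.0874) and fell by 1.00 with added aIL2RB (adjusted p = 0.000369). Among 10 genes of the ATG8 conjugation machinery, which helps place Gbp proteins on vacuoles, none was called with aPD1, and with the blockades 1, 0 and 2 were called lower and 0, 3 and 2 higher. Of 6 genes for CaaX prenylation, which lipidates the tail of Gbp2 and Gbp5, none was called with aPD1, and Icmt (0.13, adjusted p = 0.0431, with added aIL2RB) was the only one called with any blockade.

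Gbp11, a further family gene annotated as a polymorphic pseudogene had 1.08 ± 0.651 CPM in isotype tumors (n = 5), 2.47 ± 1.29 CPM with aPD1 (n = 6) and group means between 0.99 and 1.22 CPM with the blockades. Its log2 fold change was 1.203 with aPD1 (adjusted p = 0.0575), and it fell by 1.31 with added aGMCSF (adjusted p = 0.0088), by 1.03 with added aIL2RB (adjusted p = 0.0157) and by 1.18 under double blockade (adjusted p = 0.00568).

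The members kept close company over the 42 tumors. The Spearman correlation of each with the mean of the others was 0.982 for Gbp4, 0.969 for Gbp7, 0.968 for Gbp5, 0.954 for Gbp6, 0.946 for Gbp2, 0.937 for Gbp3, 0.932 for Gbp8 and 0.86 for Gbp2b, and it was lowest for Gbp9 (0.749) and Gbp10 (0.608). The closest pairs were Gbp4 with Gbp7 (0.977), on different chromosomes, and Gbp5 with Gbp6 (0.976), and the most distant was Gbp2b with Gbp10 (0.458). Among the 5 tested genes outside the family whose log2 CPM followed it most closely over the 42 tumors were Gm4951 (0.974), Iigp1 (0.973), Irgm2 (0.96) and Nlrc5 (0.956), and the correlations of these 4 within either set were between 0.919 and 0.986. All of these values share the tumors, their depth and their sets, and they are given as a description.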

How the data were processed

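Bulk poly(A) RNA-seq of 42 tumors was used, 1 tumor per mouse as far as the labels tell. The authors aligned paired reads to transcriptomes of the Collaborative Cross founder strains (GENCODE vM23 annotation, bowtie 1.2.3) and deposited the expected counts per gene that gbrs gave, summed over founder haplotypes. These expected counts, 15.2% of them not whole, were rounded before testing. Of 26811 gene identifiers, 26629 were matched to symbols of that annotation. Genes were kept by filterByExpr (count minimum 10, total 15), scaled by TMM and fitted over all 42 tumors with 1 coefficient per group (edgeR 4.0.16 in R 4.3.3, robust quasi-likelihood), with Benjamini-Hochberg adjustment over the 16932 genes of each pair and a threshold of 0.05. CPM used TMM-scaled totals, and log2 CPM a prior count of 2. All 10 members were named. Up to 4 genes of each list were named by the largest fold change among those called, plus Ifng, Irf1, Ptprc and Gbp11, and 1 further gene that is not reported here. The members and lists were chosen with earlier results of these data known. Alternatives were DESeq2 1.42.0 and its size factors, library size alone, other filters, each pair alone, set as a term, each set alone, a replicate block, leaving out the rRNA genes and leaving out single tumors. No 2 libraries agreed within sampling noise (smallest chi-square per degree of freedom 5.55). Whether counting used strand is not given in the sources used here, and totals from 7155464 to 24101643 counts set the precision.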

Additional observations from a re-analysis of the deposited data

Results flagged for a closer look

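Gbp11 stood at 5.034 CPM in aPD1 replicate 4, apart from the other aPD1 tumors, of which the next was at 2.48 CPM (gap over range 0.747). It was the only one of 36 groups of tumors tested in this way that was picked out, and chance picks out about 1 group in 20. The groups of 11 tumors (aPD1 + aIL2RB and double blockade) were not tested in this way for any gene, so their extreme tumors were not screened.

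The effect of double blockade against aPD1 differed between the sets of replicate numbers by a test of the difference itself (second minus first set, log2, edgeR) for Gbp8 (-2.53), Gbp2b (-2.968) and Gbp5 (-1.574). Against aPD1 + aIL2RB the same held for Gbp3 (-1.52), Gbp2 (-1.474), Gbp8 (-2.347), Gbp2b (-3.347) and Gbp4 (-1.747). The number of members called in these differences ran from 1 to 9 and from 0 to 8 when 1 tumor was left out, and was 0 without aPD1 + aIL2RB replicate 9. The sets coincide with differences in summed T cell markers under double blockade (11.5 to 68.3 CPM in the first set, 0.975 to 5.66 CPM in the second), and the part of these in the Gbp values was not tested.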

How the results depend on the processing

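Of 1036 values for single members in the 4 comparisons with aPD1, 942 kept direction and side of the threshold, 59 lost their call, 22 gained one and 13 changed sign, and the cause was not tested. DESeq2, its size factors and the fit without the rRNA genes gave the same member counts in these comparisons. For aPD1 against isotype (2 members called), the count was 0 with a total of at least 5 counts, 1 with at least 10 counts in every tumor, which removes Gbp2b (lowest count 3), 8 with only the groups compared in the fit, 0 in the first set, 5 in the second, and 0 to 2 with 1 tumor left out. For aPD1 + aGMCSF against aPD1 (3 called), it was 8 with only the groups compared, 5 with set as a term, 0 in the first set, 5 in the second, and 0 to 3 with 1 tumor left out (0 without aPD1 replicate 4). For aPD1 + aIL2RB against aPD1 (7 called), it was 4 in the second set and 5 to 8 with 1 tumor left out. For double blockade (8 called against aPD1), it was 6 with only the groups compared (without Gbp4 and Gbp7, each at an adjusted p of 0.0519), 7 with at least 10 counts in every tumor, 0 in the first set, 9 in the second and 8 with any 1 tumor left out. Where 0 were called, the second set gave 2 for double blockade against isotype, 1 against aPD1 + aGMCSF and 1 against aPD1 + aIL2RB. With 1 tumor left out, double blockade against isotype gave 0 to 1 (1 without its replicate 1), aPD1 + aIL2RB against aPD1 + aGMCSF 0 to 1, and double blockade against aPD1 + aGMCSF 0 to 1. The differences between sets gave 1 to 9 against aPD1 and 0 to 8 against aPD1 + aIL2RB.

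With the replicate block, aPD1 + aIL2RB against aPD1 had 3 members called, and Gbp9 changed sign to 0.0065. The numbers do not pair the tumors: deviations of same-numbered tumors had a median r of 0.0217 (lowest -0.177) over 67 pairs, against 0.0757 for other numbers of the same set and -0.0732 for the other set. The block lost the calls of Gbp3, Gbp4, Gbp6 and Gbp7 in that comparison and of Gbp6 with aPD1 + aGMCSF.

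Single values were followed for all members in aPD1 against isotype and in the blockades against aPD1, and elsewhere for Gbp2b and Gbp10 only. More members changed sign within a set elsewhere. Double blockade against aPD1 + aIL2RB had 8 members negative over all tumors and all 10 positive in the first set. For aPD1 + aIL2RB against aPD1 + aGMCSF, 8 were negative over all tumors and 8 positive in the second set. Among the values followed singly, those near 0 changed sign as follows. In the first set Gbp9 had -0.1432 (aPD1 against isotype), 0.0412 (aPD1 + aGMCSF against aPD1) and 0.0127 (double blockade against aPD1). Gbp10 in aPD1 + aIL2RB against aPD1 had -0.2829 in the first set, -0.0078 with at least 10 counts in every tumor, and -0.1446 to 0.1332 with 1 tumor left out. It had -0.2172 in the first set for aPD1 + aIL2RB against aPD1 + aGMCSF, 0.2801 in the first set for double blockade against aPD1 + aIL2RB, and -0.1335 to 0.2574 with 1 tumor left out for double blockade against aPD1 + aGMCSF. Gbp2b had -0.0709 in the second set for aPD1 + aGMCSF against isotype, and, for double blockade against aPD1 + aIL2RB, -1.824 in the second set and -0.3251 to 0.7218 with 1 tumor left out. Gbp2b, with 3 counts in its lowest tumor, is the member whose depth limits it most.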
